A study of Mus musculus with 6 samples.

Results

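Insulin-like growth factors, their receptors and their binding proteins were examined in the fracture callus of mice as 10 genes chosen by symbol from the gene lists of the libraries: the ligands Igf1 and Igf2, the receptors Igf1r and Igf2r, and the binding proteins Igfbp2, Igfbp3, Igfbp4, Igfbp5, Igfbp6 and Igfbp7. All 10 were found among the 52081 genes that the 6 libraries share. The ligands are secreted proteins that signal through the receptor tyrosine kinase encoded by Igf1r, whereas the protein of Igf2r carries Igf2 to lysosomes and has no kinase domain. The binding proteins hold the ligands outside the cell, and depending on the protein and on the proteases around it they store the ligand, withhold it or release it; Igfbp7 binds the ligands only weakly. In cartilage and bone, Igf1 is known to act on the growth and hypertrophy of chondrocytes and on osteoblasts.

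The study asked how loss of the mechanosensitive channel Piezo1 in chondrocytes bears on the step from cartilage to bone in a healing femoral fracture. Mice were 12 weeks old, and the labels describe the callus as taken from each mouse, so each of the 6 single-cell libraries is read here as 1 mouse, although the study's text is not uniform on how many mice were used. Calluses were taken at 14 days post fracture (dpf), 3 from mice with the genotype label wt (Piezo1 f/f mice in the methods, control) and 3 from mice with the label Col2CreERT; Piezo3-/- (knockout; Piezo1 in the series text and the methods). The Cre recombinase is driven by Col2a1 regulatory sequence, which is active in chondrocytes and their precursors, and acts after tamoxifen. Other cell types of the callus are not its direct target. The paper describes chondrocytes that turn into osteoblasts, so cells outside the chondrocyte classes may also carry the deletion. The study's text describes tamoxifen for both genotypes, while its methods name only the knockout mice for the timing of the injection. The study checked the deletion by immunofluorescence of the Piezo1 protein in the callus at 14 dpf. From its single-cell data it also reports lower Piezo1 in a cluster of hypertrophic chondrocytes. The counts do not check the deletion, since a 3′ tag does not show which exons a transcript lacks: among the summed chondrocyte-like plus HTC-like cells, Piezo1 was at 67.0, 42.8 and 50.1 unique molecular identifiers (UMIs) per 1000000 in control libraries 1 to 3 and at 138, 57.5 and 45.9 in knockout libraries 1 to 3, so it was not lower in the libraries labelled knockout.

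The libraries held 57626530 to 103784364 UMIs, and 41863 cells were kept, 3109 to 10065 per library. Replicate 1 of both groups had a lower median of 2554 and 2728.5 UMIs per barcode, against 5691 to 9289.5 in the other libraries. Chondrocyte-like cells of replicate 1 were not shallower, and held more UMIs per cell than those of control 2, control 3 and knockout 3. Control 1 held 18612759 UMIs in 419 of them and knockout 1 held 12359728 in 257. Control 2 held 8938024 in 475, control 3 held 4500549 in 412 and knockout 3 held 23466899 in 1067. Knockout 3 held 577 Xist UMIs per 1000000 and 0.0294 from the Y chromosome genes, whereas the other 5 libraries held at most 0.177 and at least 108, and the methods describe male mice; results by genotype are therefore also given without it. Pairs of libraries shared 4 to 36 cell barcodes. Knockout 2 held 43 chondrocyte-like and HTC-like cells, against 320 to 1522 in the other libraries. Some clusters led by cartilage genes were left unnamed and are outside these sums. The largest, led by Col10a1 and Hapln1, had 3630 cells at a median of 872 UMIs. It held 1565, 30 and 74 cells of control 1 to 3 and 1177, 525 and 259 of knockout 1 to 3. A stromal cluster led by Col10a1 and Col11a2 had 700 cells.

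Levels are UMIs of a gene per 1000000 UMIs of the same cells (UPM), summed over the cells of a class in a library and averaged over libraries with at least 20 such cells. One transcript gives 1 tag near its 3′ end, so these levels can be set side by side between genes without a correction for length. Classes carry the name of the markers that defined their clusters and the ending "-like", and none of the 10 genes was among the genes used for clustering. HTC-like cells are hypertrophic chondrocyte-like cells (Col10a1, Ihh), MSC-like cells carry Pi16, Clec3b and other markers of adventitial progenitors, PSC-like cells (periosteal stem cell-like) carry Aspn, Penk and Sfrp1, and HSPC-like cells carry markers of myeloid progenitors (Elane, Mpo). Fibroblast-like and HTC-like cells each came mainly from 1 library, control 3 with 66.7% of the former and knockout 3 with 62.2% of the latter. Of 2186 osteoblast-like cells, 1220 came from knockout 2. Levels across classes are a description, with no test, and neighbouring classes are said to differ only where the mean difference within libraries exceeded its SD and had 1 sign in every library that held both.

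**Figure D1:**
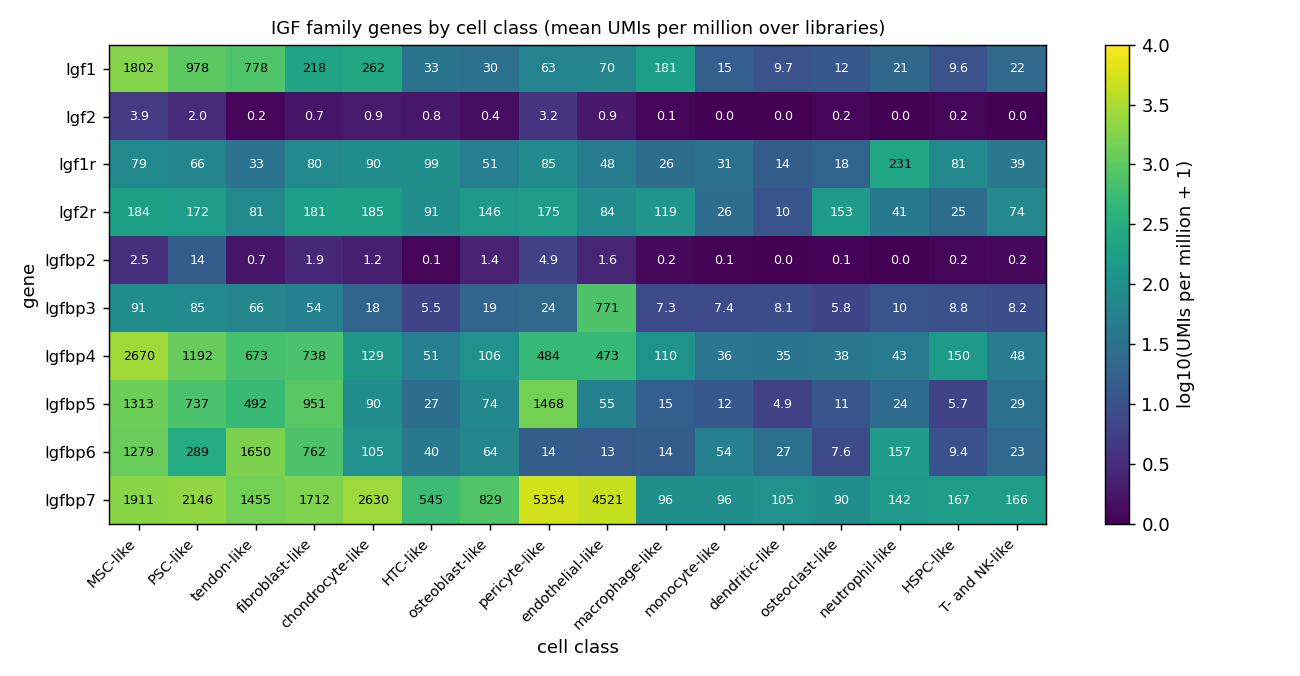
Heatmap of the 10 genes (rows) over 16 cell classes (columns). Colour is log10(UPM + 1), and the printed numbers are mean UPM over libraries with at least 20 cells of the class. Igf1, Igfbp4 and Igfbp6 were high in MSC-like and tendon-like cells, Igfbp3 in endothelial-like cells, Igfbp7 in pericyte-like and endothelial-like cells and Igf1r in neutrophil-like cells, and Igf2 and Igfbp2 were low throughout.

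Igf1 (ENSMUSG00000020053, chr10:87858265-87937042 of GRCm38, plus strand) was highest in MSC-like, PSC-like and tendon-like cells, above chondrocyte-like, HTC-like and osteoblast-like cells. In MSC-like cells it was at 2447, 2771 and 386 UPM in control libraries 1 to 3 and at 2620, 1255 and 1333 UPM in knockout libraries 1 to 3 (mean 1802 ± 954 SD, n = 6). Control 3 was the low library here, and 34 of its 67 MSC-like cells belonged to a cluster led by the interferon-response genes Ifit1 and Cxcl10, in which Igf1 was at 155 UPM. PSC-like cells had 1136, 1307 and 603 UPM in the control libraries and 1734, 282 and 806 UPM in the knockout libraries (978 ± 522, n = 6). The order of MSC-like over PSC-like cells held in 5 of 6 libraries and was not larger than its spread.

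Tendon-like cells (Tnmd, Kera) followed with 1038, 830 and 467 UPM of Igf1 in the 3 libraries that held enough of them. They were below PSC-like cells by 0.52 ± 0.35 on the log2 scale and above chondrocyte-like cells by 2.35 ± 0.77, each in 3 of 3 libraries. Chondrocyte-like cells had 188, 287 and 615 UPM in the control libraries and 164 and 55.4 UPM in knockout libraries 1 and 3 (262 ± 214, n = 5). Fibroblast-like cells (218 ± 173, n = 6) and macrophage-like cells (181 ± 103, n = 6) came next, and the differences between these 3 neighbours in the order were smaller than their spread. Endothelial-like and pericyte-like cells were at 70.3 ± 26.9 and 62.8 ± 58.0 UPM, HTC-like cells at 33.1 ± 16.2 (n = 5) and osteoblast-like cells at 29.7 ± 21.6 UPM.

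Free RNA in the droplets gives every class some UMIs of an abundant gene, and neutrophil-like cells, which are not known as a source of Igf1, held 21.3 ± 13.3 UPM of it. HTC-like and osteoblast-like cells were near that level in UPM, but they held more UMIs per cell. The medians were 21852.5 in the HTC-like cluster and 17803 in the largest osteoblast-like cluster. Free RNA is a smaller share of a deeper cell, so the neutrophil-like level does not give their background. The data do not show whether they make Igf1. After each cell was thinned to 500 UMIs, an Igf1 UMI was found in 43.1% of MSC-like cells, 29.1% of PSC-like cells, 29.9% of tendon-like cells, 9.94% of chondrocyte-like cells and 8.41% of macrophage-like cells, against 0.662% of neutrophil-like cells. Without thinning the shares were 90.3% of MSC-like, 77.7% of PSC-like, 50.8% of chondrocyte-like and 40.9% of macrophage-like cells, at medians of 14418, 14490, 21565 and 7602 UMIs per cell, and 3.94% of neutrophil-like cells at a median of 2119. Although PSC-like cells were 5.75% of all cells, they held 35.8 ± 13.7% of the Igf1 UMIs of a library, and MSC-like cells held 16.4 ± 8.82% from 1.56% of cells.

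**Figure D2:**
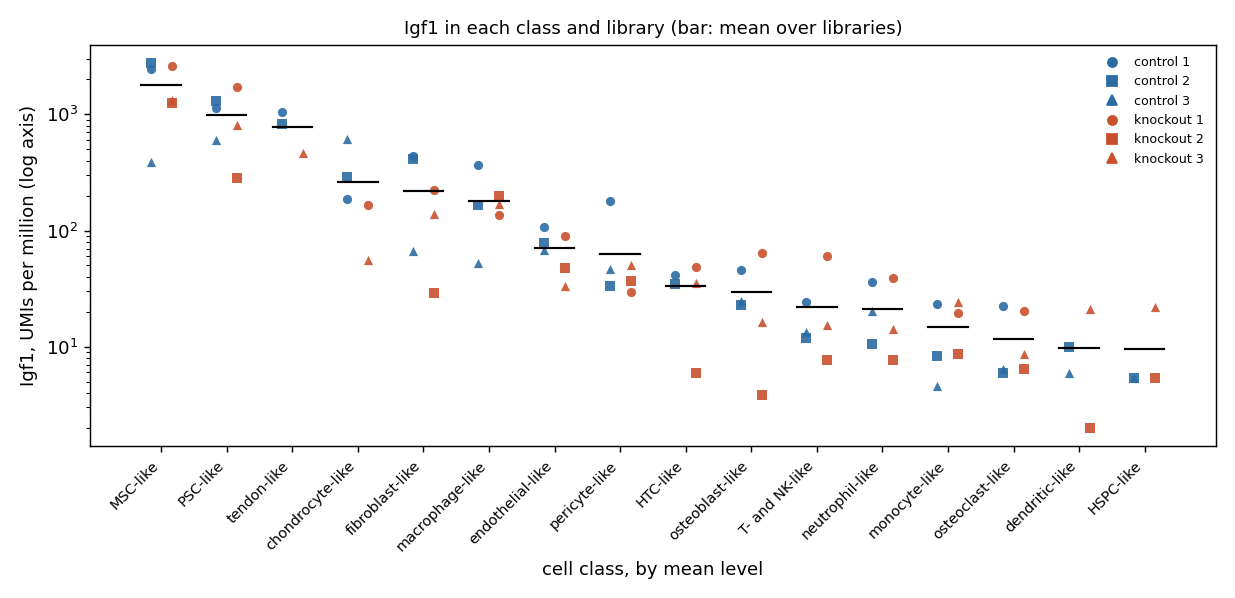
Igf1 in each cell class and library, in UPM on a log axis, with classes ordered by their mean (black bars). Blue symbols are control and red symbols knockout libraries, and the shape gives the replicate number. MSC-like, PSC-like and tendon-like cells stood highest, with means of 1802, 978 and 778, and the points of 1 class spread by more than the step to the next class in most places.

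Within chondrocyte-like cells Igf1 fell into high and low clusters. The cluster led by Chrdl2 and Adm2 had 290, 392 and 973 UPM in the control libraries and 272 and 101 UPM in knockout 1 and 3. The cluster led by Ucma and Car8, the former a marker of resting and proliferating cartilage, had 263, 512 and 711 UPM in the control libraries and 299 and 61.1 UPM in knockout 1 and 3. In the cluster led by Smim5, Crispld1, Clec3a and Epyc, Igf1 was at 25.8, 9.16 and 10.3 UPM in the control libraries and at 24.6 and 13.4 UPM in the same knockout libraries. This low cluster was under the other 2 by 4.28 ± 1.52 and 4.12 ± 1.65 on the log2 scale (SD, n = 5), in 5 of 5 libraries each. In UPM it lay at the level of neutrophil-like cells, although its cells were deeper, with a median of 27358 UMIs. These and the other clusters below were set side by side after their values were seen.

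PSC-like cells also differed in Igf1 between their clusters. The cluster led by Kcnj15, Sfrp1 and Penk was above the cluster led by Pdzrn4, Tnfrsf19 and Ndnf by 2.92 ± 0.66 in 6 of 6 libraries, and the cluster led by Pamr1 and Aspn by 2.83 ± 0.83 in 5 of 5. Among macrophage-like cells, the cluster led by Gpnmb, Pf4 and Mrc1 held 525, 248 and 95.8 UPM of Igf1 in the control and 146, 480 and 314 UPM in the knockout libraries. In the cluster led by C1qb and C1qa, Igf1 was at 178, 25.3 and 16.5 UPM in the control and 59.2, 30.5 and 63.2 UPM in the knockout libraries. The difference of 2.46 ± 1.00 on the log2 scale had 1 sign in all 6 libraries, and after thinning 12.4% and 2.07% of the cells of these clusters had an Igf1 UMI.

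Igf2 (ENSMUSG00000048583, chr7:142650766-142666816, minus strand) was nearly absent from the counts. It gave 386 UMIs over all cells of the 6 libraries, 11 to 131 per library, against 114624 for Igf1. Its highest mean was 3.92 ± 2.58 UPM in MSC-like cells (n = 6), and it had 0 UMIs in neutrophil-like, monocyte-like, T- and NK-like and dendritic-like cells. A count of 0 in the neutrophil-like sum of control 1 allows up to 10.8 UPM (3 counts), so Igf2 at the level of MSC-like cells would not have been detectable there. In the neutrophil-like sums of the other libraries the limits were 0.698 to 2.65 UPM, below the mean of MSC-like cells. Limits were 3.85 to 24.0 UPM in T- and NK-like, 1.25 to 11.6 in monocyte-like and 2.96 to 8.97 in dendritic-like sums. In each of these classes some libraries could therefore not show Igf2 at the MSC-like mean. The counts may also understate Igf2 by an amount the files do not give. The gene list also holds Gm49394, a protein-coding gene on the same strand that shares 62.8% of the exonic bases of Igf2 and its 3′ end (GENCODE M21), and the counting keeps only reads that fit 1 gene. Gm49394 itself was counted at 1 UMI over all cells. H19, the imprinted noncoding neighbour of Igf2, was at 784 ± 381 UPM in chondrocyte-like cells.

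Igf1r (ENSMUSG00000005533, chr7:67952827-68233668, plus strand), the signalling receptor, was highest in neutrophil-like cells. It was at 256, 252 and 200 UPM there in control libraries 1 to 3 and at 468, 116 and 94.2 UPM in knockout libraries 1 to 3 (231 ± 134, n = 6). HTC-like cells came next with 98.5 ± 51.4 UPM (n = 5), below neutrophil-like cells by 1.19 ± 0.82 on the log2 scale in 5 of 5 libraries. From HTC-like through chondrocyte-like (89.8 ± 36.3), pericyte-like, HSPC-like, fibroblast-like and MSC-like to PSC-like cells (66.0 ± 18.9), no neighbours differed beyond their spread. Levels were lower in mature myeloid classes other than neutrophil-like cells, with 26.4 ± 14.4 UPM in macrophage-like, 18.4 ± 5.93 in osteoclast-like and 14.3 ± 9.79 UPM in dendritic-like cells. An Igf1r UMI was found in 11.6% of thinned neutrophil-like cells, against 3.18% of chondrocyte-like and 1.04% of macrophage-like cells. An unnamed cluster of 42 cells led by Prss34 and Mcpt8, which are basophil genes, had 756 UPM in control 3, the only library with at least 20 of its cells, from 68 UMIs.

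Igf2r (ENSMUSG00000023830, chr17:12682406-12769664, minus strand) was at similar levels in most stromal classes. In chondrocyte-like cells it was at 213, 161 and 227 UPM in the control libraries and at 203 and 123 UPM in knockout 1 and 3 (185 ± 42.7, n = 5). The levels of MSC-like (184 ± 45.1), fibroblast-like (181 ± 43.0), pericyte-like (175 ± 28.7), PSC-like (172 ± 48.2), osteoclast-like (153 ± 48.7), osteoblast-like (146 ± 67.2) and macrophage-like cells (119 ± 47.1) did not differ from their neighbours beyond the spread. Levels were lowest in monocyte-like (25.6 ± 24.2), HSPC-like (25.1 ± 6.07) and dendritic-like cells (10.5 ± 4.48).

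The binding proteins were split between the classes more sharply than the receptors. Their summed level (6 genes) was highest in pericyte-like cells, at 5652 to 8885 UPM, in MSC-like cells, at 4614 to 9056 UPM, and in endothelial-like cells, at 4835 to 8066 UPM. Igfbp7 made up 88.1 ± 3.97% of the sum in chondrocyte-like cells, 77.0 ± 4.49% in endothelial-like and 71.3 ± 14.1% in pericyte-like cells. MSC-like cells had a mixed set, with 37.5 ± 14.3% from Igfbp4, 27.3 ± 6.22% from Igfbp7, 17.2 ± 9.99% from Igfbp5 and 16.6 ± 9.06% from Igfbp6. In tendon-like cells 38.1 ± 2.15% came from Igfbp6 (n = 3), and in HSPC-like cells 53.2 ± 19.4% from Igfbp4 (n = 4).

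**Figure D3:**
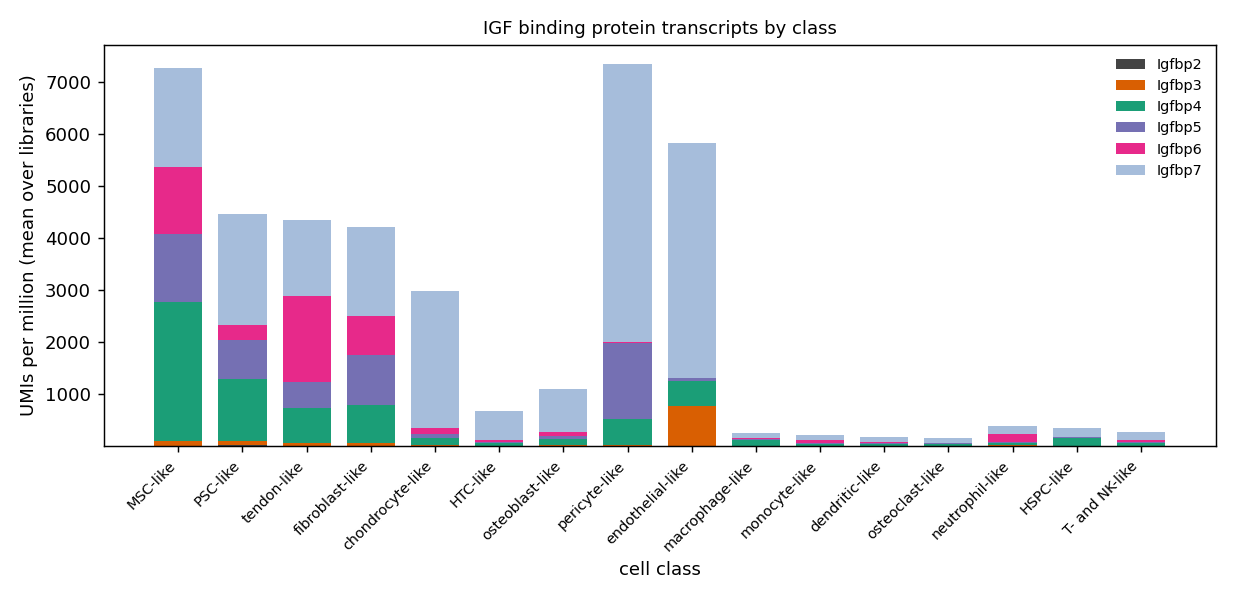
Stacked bars of the 6 binding protein genes in each cell class, in mean UPM over libraries. Pericyte-like, MSC-like and endothelial-like cells had the tallest bars, Igfbp7 made up most of the pericyte-like and endothelial-like bars, and blood cell classes were all low.

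Igfbp2 (ENSMUSG00000039323, chr1:72824503-72852474, plus strand), a binding protein with a preference for Igf2, was low throughout, with 945 UMIs in all. It was at 21.3, 10.98 and 1.55 UPM in PSC-like cells of the control libraries and at 2.71, 30.02 and 19.3 UPM in those of the knockout libraries (14.3 ± 11.2, n = 6). PSC-like cells held 46.8 ± 14.7% of its UMIs. Its neighbour in the genome 5.46 kb away on the other strand, Igfbp5, was at 737 ± 370 UPM in the same cells.

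Igfbp3 (ENSMUSG00000020427, chr11:7206086-7213923, minus strand), the main carrier of Igf1 in blood, was an endothelial transcript in these libraries. Endothelial-like cells had 541, 941 and 1113 UPM in the control libraries and 837, 357 and 836 UPM in the knockout libraries (771 ± 275, n = 6). The next class, MSC-like cells, had 90.6 ± 46.5 UPM, lower by 3.15 ± 0.79 on the log2 scale in 6 of 6 libraries. Endothelial-like cells held 74.0 ± 16.3% of all Igfbp3 UMIs while being 12.8% of the cells. Chondrocyte-like cells (17.5 ± 9.85) were not above neutrophil-like cells (10.1 ± 5.80 UPM) beyond the spread, and HTC-like cells were at 5.53 ± 3.53 UPM. Neutrophil-like cells held fewer UMIs per cell, so their level does not give the background of these classes.

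Arterial and venous cells differed in Igfbp3. In the arterial-like cluster, led by Gja5 and Sema3g, it was at 1048, 2024 and 1400 UPM in the control libraries and at 1083, 1695 and 1633 UPM in the knockout libraries. The cluster led by the capillary gene Gpihbp1 and Kcne3 had 895, 1424 and 1535 UPM in the control and 1293, 299.8 and 1275 UPM in the knockout libraries. In the venous-like cluster, led by Selp and Ackr1, levels were 19.1, 41.1 and 180 UPM in the control and 43.4, 40.6 and 36.0 UPM in the knockout libraries. The arterial-like cluster exceeded the venous-like one by 4.95 ± 1.05 and the Gpihbp1 cluster exceeded it by 4.41 ± 1.14 on the log2 scale, each in 6 of 6 libraries, whereas the arterial-like and Gpihbp1 clusters differed by 0.53 ± 1.00, within the spread. Thinned cells with an Igfbp3 UMI were 35.7% of the arterial-like, 18.3% of the Gpihbp1 and 2.39% of the venous-like cluster. Cells led by Ccl21a, Mmrn1 and Prox1, genes of lymphatic endothelium, had 12.97 and 0 UPM in the 2 libraries with enough of them, where the 0 allows up to 8.19 UPM. Igfbp5 went the other way, with the venous-like above the Gpihbp1 cluster by 1.63 ± 0.96 in 6 of 6 libraries.

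Igfbp4 (ENSMUSG00000017493, chr11:99041244-99054392, plus strand), which is cleaved by the protease Pappa to free its ligand, was highest in MSC-like cells. These had 1923, 3198 and 1527 UPM in the control libraries and 4247, 2240 and 2886 UPM in the knockout libraries (2670 ± 986, n = 6). They were above PSC-like cells (1192 ± 374) by 1.14 ± 0.19 and PSC-like cells were above fibroblast-like cells (738 ± 273) by 0.72 ± 0.59 on the log2 scale, each in 6 of 6 libraries. Tendon-like (673 ± 114, n = 3), pericyte-like (484 ± 106) and endothelial-like cells (473 ± 174) followed. HSPC-like cells had 150.3 ± 13.7 UPM (n = 4), below endothelial-like cells by 1.69 ± 0.64 on the log2 scale in 4 of 4 libraries, and chondrocyte-like cells had 129 ± 27.8 UPM. Pappa itself was at 79.2 UPM in fibroblast-like cells, its highest class.

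Igfbp5 (ENSMUSG00000026185, chr1:72857932-72874884, minus strand), the binding protein that is stored in bone matrix, varied more between libraries than between its top classes. Pericyte-like cells had 2078, 1958 and 2493 UPM in the control libraries and 1465, 571 and 245 UPM in the knockout libraries (1468 ± 890, n = 6). In MSC-like cells the values were 2275, 2001 and 696 UPM in the control and 263, 2084 and 561 UPM in the knockout libraries. Fibroblast-like cells ranged from 67.3 UPM in control 3 to 2569 UPM in control 1. Pericyte-like, MSC-like, fibroblast-like, PSC-like and tendon-like cells did not differ from their neighbours beyond the spread, while tendon-like cells exceeded chondrocyte-like cells (89.6 ± 49.1 UPM) by 2.55 ± 0.69 in 3 of 3 libraries.

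Igfbp6 (ENSMUSG00000023046, chr15:102144362-102149511, plus strand), a binding protein that prefers Igf2, marked tendon-like and MSC-like cells. It was at 2256, 1312 and 1381 UPM in tendon-like cells of control 1, control 2 and knockout 3 (1650 ± 526, n = 3), above MSC-like cells by 0.28 ± 0.22 on the log2 scale in 3 of 3 libraries. MSC-like cells had 1607, 1073 and 532 UPM in the control and 319, 2812 and 1332 UPM in the knockout libraries. It was low in pericyte-like (13.9 ± 10.9) and endothelial-like cells (12.5 ± 5.93 UPM), the classes with the most Igfbp7.

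Fibroblast-like (762 ± 483) and PSC-like cells (289 ± 60.6 UPM) followed MSC-like cells, without a difference beyond the spread. Neutrophil-like cells came next for Igfbp6 and were not above chondrocyte-like cells beyond the spread (0.13 ± 1.81, log2, 3 of 5 libraries). They had 36.0, 169 and 322 UPM in the control libraries and 348, 42.8 and 23.7 UPM in the knockout libraries. The cluster led by Gm5483, Stfa2l1 and Il1b had 44.9, 316 and 470 UPM in the control and 384, 98.0 and 47.9 UPM in the knockout libraries. In the cluster led by Ly6g, Ceacam10 and Mmp8 the levels were 7.80 and 36.0 UPM in control 2 and 3 and 5.79 and 12.8 UPM in knockout 2 and 3. The difference was 3.63 ± 1.38 on the log2 scale in 4 of 4 libraries, beside 0.89 ± 0.44 for Igfbp7, 0.72 ± 0.37 for Igfbp4 and 0.86 ± 0.18 for Igf1r. The Il1b cluster was the shallower one, with a median of 1641 UMIs per cell against 4095, and after thinning 13.002% of its cells and 0.903% of the other cluster's had an Igfbp6 UMI.

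Igfbp7 (ENSMUSG00000036256, chr5:77349240-77408041, minus strand), a protein of vessel walls and basement membranes, was the most abundant of the 10, with 759232 UMIs. Pericyte-like cells had 3874, 4368 and 5226 UPM in the control libraries and 3471, 7003 and 8180 UPM in the knockout libraries (5354 ± 1867, n = 6). Endothelial-like cells had 3747, 4741 and 3694 UPM in the control and 4102, 4096 and 6744 UPM in the knockout libraries (4521 ± 1152, n = 6), not different from pericyte-like cells beyond the spread. They exceeded chondrocyte-like cells (2630 ± 543, n = 5) by 0.79 ± 0.17 on the log2 scale in 5 of 5 libraries. Osteoblast-like cells had 829 ± 484 and HTC-like cells 545 ± 256 UPM (n = 5). Means of HSPC-like, T- and NK-like, neutrophil-like, dendritic-like, macrophage-like, monocyte-like and osteoclast-like cells lay between 89.9 and 167 UPM, and knockout 3 was the highest library in each of these classes.

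**Figure D4:**
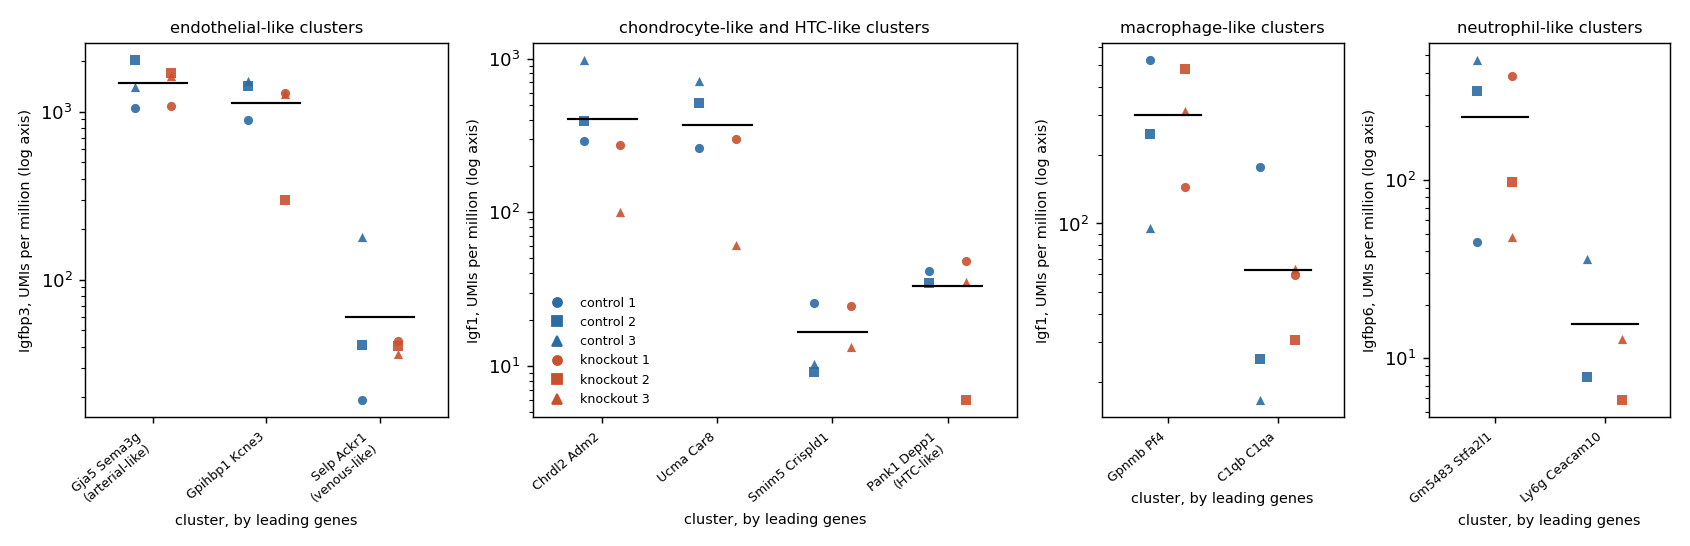
Levels within classes, in UPM on log axes, for Igfbp3 in endothelial-like clusters, Igf1 in chondrocyte-like and HTC-like clusters, Igf1 in macrophage-like clusters and Igfbp6 in neutrophil-like clusters. Points are libraries (blue control, red knockout, shape by replicate), bars are means, and clusters are named by their leading genes. In the endothelial panel every arterial-like point, from 1048 to 2024, lay above every venous-like point, from 19.1 to 180.

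Most members were lower in UPM, a share of the UMIs of a class, in HTC-like than in chondrocyte-like cells. Of 50 differences of 10 genes over 5 pairs of classes, those from chondrocyte-like to HTC-like cells were negative in 4 of 4 libraries for Igf1 (-1.89 ± 0.98, log2), Igf2r (-0.85 ± 0.35), Igfbp2 (-0.75 ± 0.53), Igfbp3 (-1.02 ± 0.71), Igfbp4 (-1.27 ± 0.61), Igfbp5 (-1.26 ± 0.31), Igfbp6 (-1.23 ± 0.21) and Igfbp7 (-2.02 ± 0.30). Igf1r differed by 0.15 ± 0.45 and Igf2 by -0.10 ± 0.81, both within the spread. The share of all genes with a difference beyond the spread was not counted for any of the 5 pairs of classes. Whether the lower levels in HTC-like cells were particular to the members was therefore not tested. With finer clusters (resolution 1.2) the differences of Igf2r, Igfbp3 and Igfbp4 shrank to -0.36, -0.05 and -0.43 and that of Igf1r grew to 0.73. At resolution 0.8, Igfbp2 was near the floor, with means of 0.185 UPM in HTC-like and 1.06 UPM in chondrocyte-like cells of the 4 libraries. It had 0 UMIs in HTC-like cells of control 2 and knockout 1. The 0 of control 2 allows up to 5.22 UPM, so a decrease of Igfbp2 is not shown there. With a pseudocount of 10 in place of 1, its difference was -0.12 ± 0.09 and that of Igfbp3 -0.53 ± 0.40. Both stayed negative in 4 of 4 libraries.

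Osteoblast-like cells had less Igf1 (-2.64 ± 1.38), Igf1r (-0.63 ± 0.17), Igfbp6 (-0.50 ± 0.47) and Igfbp7 (-1.51 ± 0.56) than chondrocyte-like cells in 5 of 5 libraries. Knockout 2, which held most osteoblast-like cells, was not among these libraries, since it held too few chondrocyte-like cells. Fibroblast-like cells had more Igfbp4 (2.61 ± 0.74) and Igfbp6 (2.85 ± 0.98) than chondrocyte-like cells in 5 of 5 libraries, while Igf1 differed by 0.06 ± 1.86, within the spread. Without integration of the libraries the difference of Igfbp6 was 1.43, and that of Igfbp5 turned from 2.93 ± 2.85 to -0.68. Pericyte-like cells had less Igfbp3 (-5.02 ± 0.62) and more Igfbp5 (4.43 ± 1.204), Igf1r (0.80 ± 0.20) and Igf2r (1.08 ± 0.26) than endothelial-like cells in 6 of 6 libraries, and Igfbp4 and Igfbp7 differed by 0.07 ± 0.52 and 0.21 ± 0.39, within the spread. Macrophage-like cells had more Igf1 (3.53 ± 0.71), Igf2r (2.43 ± 0.59) and Igfbp4 (1.54 ± 0.48) and less Igfbp6 (-1.71 ± 0.79) than monocyte-like cells in 6 of 6 libraries.

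For each member the genes with the most similar pattern were sought over 91 sums of 18 classes and 6 libraries, as a Pearson correlation of log2(UPM + 1). Points of 1 library share its depth and points of 1 class share its cells, so these values describe a pattern and carry no p. Igf1 was most like Col14a1 (0.90), Gas6 (0.89) and Sfrp2 (0.86), genes of fibroblastic stroma. Igfbp3 was most like Mecom (0.86), Jcad (0.85) and Tspan9 (0.84), of which Mecom and Jcad are known in endothelium. Igfbp7 was most like Cavin3 (0.94), Dlc1 (0.93) and Fermt2 (0.93), and Igfbp5 like Serping1 (0.92), Fstl1 (0.91) and Nfatc4 (0.90). Fstl1 (0.90) was also first for Igfbp4, followed by Ddah2 and Nox4 (both 0.87), and Mfap5 (0.86), Bnc2 and Angptl1 (both 0.85) were first for Igfbp6. The receptors were most like genes expressed in many cells, Igf1r like Atrn (0.84), Rab6a (0.78) and Gnai3 (0.77), and Igf2r like Ppp2r3a (0.85), Dst (0.83) and Otud7b (0.83). The low genes had weaker partners, Gpc3 (0.76), Scn7a (0.75) and Pi15 (0.73) for Igf2 and Kcne4 (0.67), Col8a1 (0.66) and Runx1t1 (0.66) for Igfbp2.

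The comparison by genotype label asked whether the members differed in the cells in which the Cre is meant to act, chondrocyte-like and HTC-like cells together. None passed the test: of 14634 genes fitted with edgeR, 0 were called at an adjusted p under 0.05 (0%), the 10 members among them, and 321 genes had an unadjusted p under 0.05. Pseudo-bulk sums of 3 against 3 libraries were compared, so the p-values measure the spread between these libraries, and fewer cells of a state and less RNA per cell cannot be told apart in such sums. In tests of the procedure at this size, a log2 change of 1 was found in 7.94% of the genes given it, a change of 2 in 65.6% and a change of 3 in 91.9%. The simulated libraries shared a common mean profile, and changes of every size were given together. These shares may therefore not hold for the real libraries, which differed in make-up.

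Igf1 had the largest difference. It was at 151, 271 and 573 UPM in control libraries 1 to 3 and at 142, 9.39 and 49.8 UPM in knockout libraries 1 to 3, with no overlap although control 1 and knockout 1 were close. Its log2 fold change of knockout against control was -2.25 (SE 0.79, edgeR adjusted p = 1.00), and it ranged from -3.26 to -1.59 as each library was left out, with a lowest adjusted p of 0.361. Igfbp5 was at 86.6, 71.7 and 174 UPM in the control and at 81.6, 24.6 and 18.0 UPM in the knockout libraries, with overlap (-1.38, SE 0.56, edgeR adjusted p = 1.00).

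Igfbp3 was at 10.1, 22.3 and 30.02 UPM in the control and at 7.60, 1.17 and 11.4 UPM in the knockout libraries (-1.28, SE 0.54). Igfbp2 was at 1.28, 1.68 and 1.66 UPM against 0.131, 0 and 0.586 UPM (-1.92, SE 0.69), and Igf2 at 0.961, 1.26 and 1.24 UPM against 0.590, 0 and 0.278 UPM (-1.46, SE 0.62). Neither of the last 2 overlapped between the groups, but the 0 of knockout 2 allows up to 3.52 UPM, above every control value, and the fitted fold changes depend on the prior count. All 10 members had a negative log2 fold change, with a median of -0.96 against -0.03 over all genes. The knockout libraries did not share this evenly. Knockout 1 lay close to control 1 for Igf1, Igfbp5, Igf2r, Igfbp4, Igfbp7 and Igf1r, and below it for Igfbp2, Igf2 and Igfbp3. For 5 of 10 the unadjusted p was under 0.05 and the level lower, against 1.2% of all genes, and 3 of 10 did not overlap between the groups and were lower, against 4.59% of all genes. Both counts include Igf2 and Igfbp2, whose 0 in knockout 2 does not show a lower level. The members were measured in the same 6 sums, so these counts are not independent of each other. The members were also chosen with earlier results of these data known, so the shares are no test of the family.

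The remaining members differed by less. Igf2r was at 193, 155 and 218 UPM in the control and at 190.3, 55.2 and 108 UPM in the knockout libraries (-0.63, SE 0.42). Igfbp4 was at 102, 141 and 156 UPM against 109, 73.9 and 83.3 UPM (-0.55, SE 0.30), and Igfbp6 differed by -0.37 (SE 0.34). Igfbp7 was at 1924, 2405 and 2444 UPM against 1876, 387 and 2777 UPM (-0.36, SE 0.62), where only knockout 2 stood apart. Igf1r was at 131, 68.4 and 63.5 UPM against 137, 44.6 and 67.5 UPM (-0.02, SE 0.43), a difference within the spread. Its sign turned without control 1 (0.35), knockout 2 (0.28) or knockout 3 (0.07), and that of Igfbp7 without knockout 2 (0.14). The summed binding proteins were at 2225, 2705 and 2955 UPM against 2157, 555 and 2974 UPM, with an exact two-sided permutation p of 0.5, where 0.1 is the smallest that 3 against 3 libraries allow.

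The make-up of the summed cells moved with these differences. HTC-like cells, which were low in Igf1, made up 24.9, 5.57 and 4.41% of the combined class in the control libraries and 19.7, 65.1 and 29.9% in the knockout libraries. Together with the low-Igf1 cluster led by Smim5 and Crispld1 they made up 48.7, 33.2 and 24.4% in the control and 51.9, 88.4 and 56.2% in the knockout libraries. In chondrocyte-like cells alone, without knockout 2, which held 15 of them, Igf1 differed by -1.68 (SE 0.60, edgeR adjusted p = 1.00) and 8 of 10 members were lower, with a median of -0.63. In HTC-like cells alone, without control 3, which held 19 of them, 4 of 8 members tested were lower and the median was -0.07. Its part in the difference was not tested.

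Single libraries moved the counts of members. Without control 3, all 10 members were still lower, the median was -0.70 and 0 had an unadjusted p under 0.05, against 0.861% of all genes in the same fit. Without knockout 2, which held 852081 UMIs in these cells against 4830891 to 32404600 in the others, 8 of 10 were lower, the median was -0.71 and 2 had an unadjusted p under 0.05, against 1.49% of all genes. Without knockout 3, the library with Xist, 9 of 10 were lower, the median was -1.02 and 2 had such a p, against 1.35% of all genes. Without control 2 such a p was found for 2 members against 1.16% of all genes, without control 1 for 4 against 3.96%, and without knockout 1 for 4 against 12.9%. Without the filter on low counts, edgeR called 105 of 29344 genes (0.358%), among them Igf1 (adjusted p = 4.72e-05) and Igfbp5 (adjusted p = 0.0390), so the call on these genes depends on that filter.

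**Figure D5:**
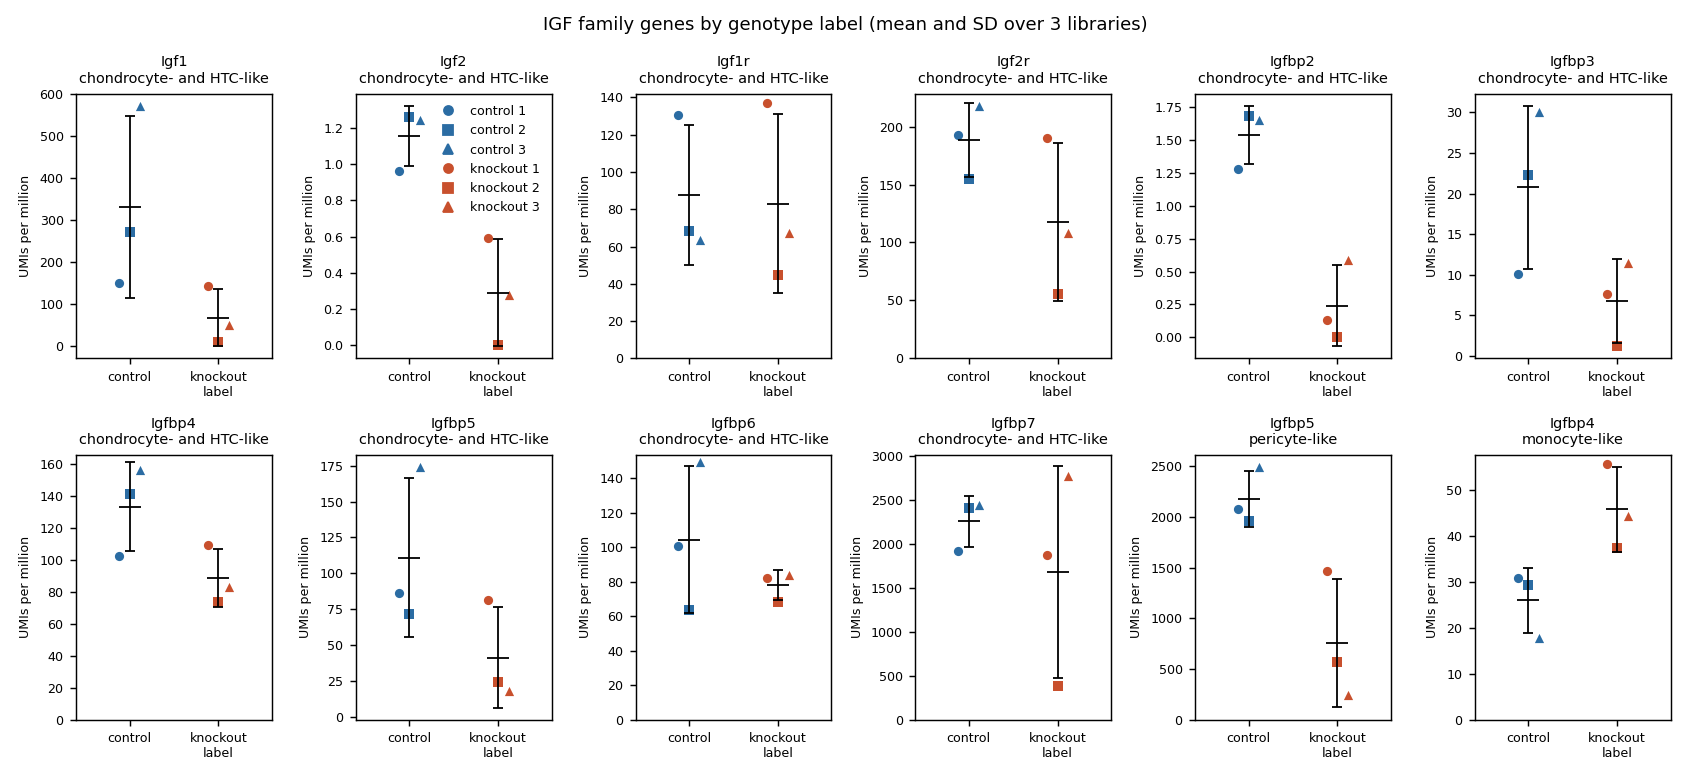
The 10 members in the chondrocyte-like plus HTC-like sums, with Igfbp5 in pericyte-like and Igfbp4 in monocyte-like cells, in UPM by genotype label. Points are libraries, and bars are the mean and SD over 3 libraries. Knockout 1 lay at or near the lowest control library for Igf1 (142 against 151), and Igfbp5 in pericyte-like cells was lower in each knockout library than in each control library.

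In the 15 other class fits, 0 of 158708 gene and class pairs were called (0%), the 118 pairs of a member with a class among them. These fits include chondrocyte-like and HTC-like cells on their own, which are the cells of the combined class. An unadjusted p under 0.05 was found for 9 of 118 member pairs against 3.43% of all pairs, and 2 of the 9 were Igf1 and Igfbp3 in chondrocyte-like cells. In the 11 classes with 3 libraries of each label, 5 of 87 member pairs did not overlap in either direction, against 7.37% of all pairs, so non-overlap was no more frequent among the members than among all genes.

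The widest of these 5 was Igfbp5 in pericyte-like cells, lower in every knockout library (1465, 571 and 245 UPM) than in any control library (2078, 1958 and 2493 UPM). The log2 fold change was -1.54 (SE 0.53, edgeR adjusted p = 0.935), from -2.35 without knockout 1 to -1.14 without knockout 3. It was 1 of 8 members tested in these cells that did not overlap and was lower, against 4.91% of all genes. In the largest pericyte-like cluster alone, led by Myh11 and Rgs5, the levels were 2202, 2174 and 2611 UPM in the control and 1630, 647 and 275 UPM in the knockout libraries. Pericyte-like cells are not cells in which the Cre is meant to act.

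Igf2r was lower without overlap in MSC-like cells, at 230, 204 and 232 UPM in the control and 158, 122 and 156 UPM in the knockout libraries (-0.61, SE 0.27, edgeR adjusted p = 1.00). In endothelial-like cells it was at 128, 87.8 and 82.0 UPM against 80.5, 73.9 and 53.8 UPM (-0.46, SE 0.21). The other pairs without overlap were higher in the knockout libraries, both in monocyte-like cells. Igfbp4 was at 30.9, 29.4 and 17.9 UPM in the control and at 55.8, 37.4 and 44.4 UPM in the knockout libraries (0.87, SE 0.31, edgeR adjusted p = 1.00). The mean of Igfbp4 over all libraries there, 36.0 UPM, was below the 43.5 UPM of neutrophil-like cells. Outside the combined class its log2 fold change was negative only in chondrocyte-like (-0.33) and osteoblast-like cells (-0.07). It was largest in dendritic-like cells (1.59). Igfbp5 was at 7.72, 8.26 and 9.81 UPM against 23.5, 10.4 and 11.1 UPM (0.73, SE 0.45), below the 23.8 ± 22.3 UPM of neutrophil-like cells. Neutrophil-like cells were shallower, so their levels are not a background for monocyte-like cells. In the monocyte-like sum of control 1, from 20 cells, 3 counts would be 11.6 UPM, so its values for both genes rest on few counts.

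Beyond the members, a list of 49 genes around the pathway was counted in the chondrocyte-like plus HTC-like sums. It held receptors and adaptors, other binding proteins, proteases and their inhibitors, the growth hormone axis, imprinted neighbours and binders of Igf2 mRNA. It also held the PI3K and AKT branch and proteins that share the amino-terminal domain of the binding proteins. Pdk1, listed in the PI3K and AKT branch, is in mouse the symbol of a pyruvate dehydrogenase kinase and not of a kinase of AKT. Of 44 tested, 0 were called by edgeR, 23 were lower and 21 higher, and the median log2 fold change was -0.04. An unadjusted p under 0.05 was found for 1 of the 44 (Eif4ebp1, 0.67, SE 0.27), against 2.19% of all genes, so the list was at the background.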

How the data were processed

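Counts of unique molecular identifiers (UMIs) per gene and cell barcode were deposited for 6 droplet 3′ libraries; per the file headers the authors made them with Cell Ranger, version 6.1.1 for the first replicates and 6.1.2 for the others, on GRCm38. Replicate 3 of both groups uses another gene list, and the 52081 shared genes were used, which hold at least 97.8% of the UMIs of a library.

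Barcodes under 500 UMIs or 200 genes, or above 20% mitochondrial UMIs, were dropped. The barcodes with the highest Scrublet scores (Scanpy 1.11.5) were removed as doublets, at 0.8% of a library per 1000 cells. Clusters were found with leidenalg 0.10.2 (resolution 0.8) on 2000 variable genes and 30 components integrated with Seurat 5.3.0, and stromal cells were clustered again. The 10 members, the pathway list, and sex, ribosomal RNA and mitochondrial genes were left out of the variable genes. A cluster was named where at least 3 markers of a type were found in at least 25% of its cells and at 2 times the median cluster. Clusters could also stay unnamed for low depth relative to their libraries, for rival markers or for many likely doublets.

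UMIs were summed per class and library. Sums were tested by genotype label with the quasi-likelihood test of edgeR 4.0.16 (R 4.3.3; default expression filter, TMM), with Benjamini-Hochberg adjustment over all genes fitted and a threshold of 0.05. The fit was checked on simulated data. Log2 differences between classes used a pseudocount of 1. Shares of cells with a UMI and limits from a count of 0 (3 counts) cover counting error only. All members are described, with the 3 genes most alike to each. The members and lists were chosen with earlier results of these data known. Alternatives covered DESeq2 1.42.0, scaling, filters, doublets, integration, resolution, left-out libraries and a replicate block.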

Additional observations from a re-analysis of the deposited data

Results flagged for a closer look

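Igfbp5 differed by genotype label in opposite directions in a pair of classes: every knockout library was below every control library in pericyte-like cells (-1.54, log2) and above every control library in monocyte-like cells (0.73). The difference between these log2 fold changes was 2.27. It was not tested, and neither fold change passed the edgeR threshold on its own. The level in monocyte-like cells, 7.72 to 23.5 UMIs per 1000000, was no higher than the mean of 23.8 in neutrophil-like cells. Neutrophil-like cells were shallower, so their mean is not a background for monocyte-like cells. In control 1, with 20 monocyte-like cells, 3 counts would be 11.6 UMIs per 1000000, above its level of 7.72. Groups did not overlap for 5 of 87 member and class pairs, against 7.37% of all pairs.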

How the results depend on the processing

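With chondrocyte-like and HTC-like cells summed, 0 members were called under every alternative run except the fit without a filter on low counts, which called 2 (Igf1 and Igfbp5). In the other classes that fit called 4 member and class pairs (Igfbp7 in HSPC-like, Igf1 in chondrocyte-like, Igfbp5 in osteoblast-like and Igfbp5 in pericyte-like cells) of 144, against 0.286% of all gene and class pairs, and leaving out 1 library gave 0 to 5 pairs. The 5 pairs, of 111 against 0.246% of all pairs, came without knockout 2, in HSPC-like cells (3 of 8 members against 2.47% of all genes) and dendritic-like cells (2 of 6 against 1.22%), where the knockout group was then 1 library that was assumed to vary like the others. The log2 fold change of Igf1r ranged from -0.53 to 0.35 and that of Igfbp7 from -1.02 to 0.14 as libraries were left out, and they were 0.30 and 0.085 with 2 times as many doublets removed, which also left knockout 2 with too few cells for the fit. Of 170 log2 fold changes under alternatives, 162 kept their direction and their side of the threshold, and 128 of 128 levels and 685 of 700 differences between classes stayed within the spread. The replicate block gave 0 members called and a median log2 fold change of -1.03 in the combined class. Same-numbered libraries correlated at 0.27, -0.083 and 0.03 there, so the numbers were not taken as pairs. The replicate 1 pair was the highest there and in endothelial-like (0.316) and pericyte-like cells (0.234), but not in macrophage-like cells (0.0723). Replicate 1 of both groups was also counted with Cell Ranger 6.1.1, and whether these libraries share a batch was not tested. The cause of the changes under the alternatives was not tested. Knockout 2 held 43 cells of the combined class, which limits every comparison by genotype label there.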

Other observations

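The other genes of the pathway were spread over the classes. Of 49, 43 reached a mean of at least 10 UMIs per 1000000 in some class, most often endothelial-like (8 genes), chondrocyte-like and tendon-like cells (5 genes each). The following genes were picked after their values were seen. Insr, the insulin receptor, was highest in endothelial-like cells (124 ± 52.4 UMIs per 1000000, SD, n = 6). The adaptors Grb10 (403) and Grb14 (186) and the substrate Irs1 (153) were highest in chondrocyte-like cells. The stanniocalcins, which inhibit the protease Pappa, were highest in different classes, Stc1 in endothelial-like (121) and Stc2 in chondrocyte-like cells (62.0). Ghr, the growth hormone receptor, and Socs2, a suppressor of its signalling, were both highest in tendon-like cells (121 and 207), where Ccn2 was at 2044. Htra1, a secreted protease that cleaves binding proteins, was highest in HTC-like cells but with a spread wider than its mean (592 ± 849).

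Macrophage-like cells held 12.2 ± 18.1% of the Igf1 UMIs of a library, from 1.38% in the lowest to 48.7% in the highest library.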
